A study of Mus musculus with 12 samples.

Results

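Surface receptors that raise or restrain the response of T cells were followed in mouse thymic leukemia through 7 genes: Cd2, Cd5, Cd6, Cd7, Cd27, Cd28 and Ctla4. The members were every probe set that the array's annotation gives to 1 of these genes alone, which made 9 probe sets of the 12422 tested, and 7 of the 8251 genes measured. All 7 genes had at least 1 probe set, and Cd6 and Cd27 had a pair each. No filter on low values was applied, so all 9 were tested.

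RNA abundance was measured on Affymetrix arrays in cell suspensions of the thymus from C57Bl/6 mice. The leukemia group holds 8 arrays of leukemic cells from terminally ill TEL-JAK2 mice, whose genotype carries a fusion of the transcription factor TEL (Etv6) with the tyrosine kinase Jak2. The comparison group holds 4 arrays of thymocytes from wild-type mice aged 2 months. No source used here gives the age of the leukemic mice or the promoter that drives the fusion. Nothing in the labels states that arrays of a group come from separate animals, so the p-values speak of the variation among these arrays, which may in part be technical.

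A T cell needs a signal from its antigen receptor and a second signal from costimulatory receptors to become fully active. Cd28 supplies that second signal when it binds Cd80 or Cd86 on another cell, and Ctla4 binds the same ligands more tightly and restrains the response. Cd5 and Cd6 are neighbouring genes for scavenger receptor cysteine-rich proteins that dampen antigen receptor signalling, and Cd5 rises on thymocytes with the strength of that signalling. Cd2 is an adhesion receptor that in the mouse binds Cd48, Cd27 is a receptor of the tumour necrosis factor receptor family whose ligand is Cd70, and Cd7 is an immunoglobulin-family protein of T and NK cells.

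The RefSeq table used for sequences (assembly GRCm38.p6) held a start region for 3 of the 7 genes, Ctla4, Cd5 and Cd27. Those of Ctla4 and Cd5 are shown as those of a member that rose and a member that fell. Each run is the 250 bases before the annotated start, read 5′ to 3′ on the gene's strand, at chr1:60908775-60909024 (plus strand) for Ctla4 and chr19:10738975-10739224 (minus strand) for Cd5. Capitals mark matches, on either strand, to GGAAG, a core letter run of ETS factors, and to CAGGTG, an E-box.
Ctla4: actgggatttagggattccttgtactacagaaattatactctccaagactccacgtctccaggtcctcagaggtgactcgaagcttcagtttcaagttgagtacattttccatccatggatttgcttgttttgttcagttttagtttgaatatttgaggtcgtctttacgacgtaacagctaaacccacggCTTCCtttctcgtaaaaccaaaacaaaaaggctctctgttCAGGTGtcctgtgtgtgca
Cd5: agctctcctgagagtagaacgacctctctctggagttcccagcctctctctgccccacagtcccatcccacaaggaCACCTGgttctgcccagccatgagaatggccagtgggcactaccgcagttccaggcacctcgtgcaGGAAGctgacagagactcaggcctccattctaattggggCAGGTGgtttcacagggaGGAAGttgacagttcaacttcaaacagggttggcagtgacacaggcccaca

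The Ctla4 window held 1 match to GGAAG and 1 to CAGGTG, and the Cd5 window held 2 of each. None of the matches overlapped another. Of 32851 start regions in the table, 64.1% held GGAAG and 17.2% held CAGGTG in the same 250 bases. The letters TTCNNNGAA, which STAT factors recognise, were in 7.02% of the regions and in neither of these windows. A match is a description of the letters and not evidence of binding.

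Array brightness differed little between groups. Median intensities lay between 66.5 and 70.2. A control level was set on each array from its 19 control probe sets for non-mouse transcripts, as their 95th percentile, which averaged 5.37 on the log2 scale over leukemias and 5.34 over thymocyte arrays. On single arrays 59.6% to 65.4% of probe sets exceeded it. Pairs of leukemias correlated at 0.961 to 0.993 over probe sets and pairs of thymocyte arrays at 0.990 to 0.997. The T-cell label held in both groups: Cd3e, a chain of the antigen receptor complex, had log2 values of 10.22 to 11.34 in leukemias and 11.09 to 11.26 in thymocyte arrays. Of 13 measured T-cell and thymocyte markers 0 rose and 3 fell, namely Cd4, Rag2 and Ptcra, where 5.15% of all genes rose and 11.4% fell.

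In the comparison of leukemias with thymocytes, 7 of the 9 member probe sets passed the test, 2 higher and 5 lower, where 14.5% of all probe sets passed, 4.65% higher and 9.88% lower. The test was limma's moderated test on log2 intensities, two-sided. Its p-values were adjusted by Benjamini and Hochberg's method across the 12422 probe sets with a threshold of 0.05, and every adjusted p for a gene comes from it unless another test is named. Ctla4 and Cd2 rose, Cd5, Cd6 and Cd28 fell, Cd27 fell on 1 of its 2 probe sets, and Cd7 did not pass. For 6 of the 9 probe sets all leukemias lay above or all lay below every thymocyte array, 2 above and 4 below, where 10.7% of all probe sets did so, 3.84% above and 6.84% below. A called change of at least 2-fold was seen for 6 members, 2 higher and 4 lower, where 2.26% of all probe sets had one, 1.05% higher and 1.21% lower. The median change over all probe sets was 0.01 on the log2 scale. In a suspension of mixed cells, fewer cells of a type and less RNA per cell cannot be told apart.

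**Figure D1:**
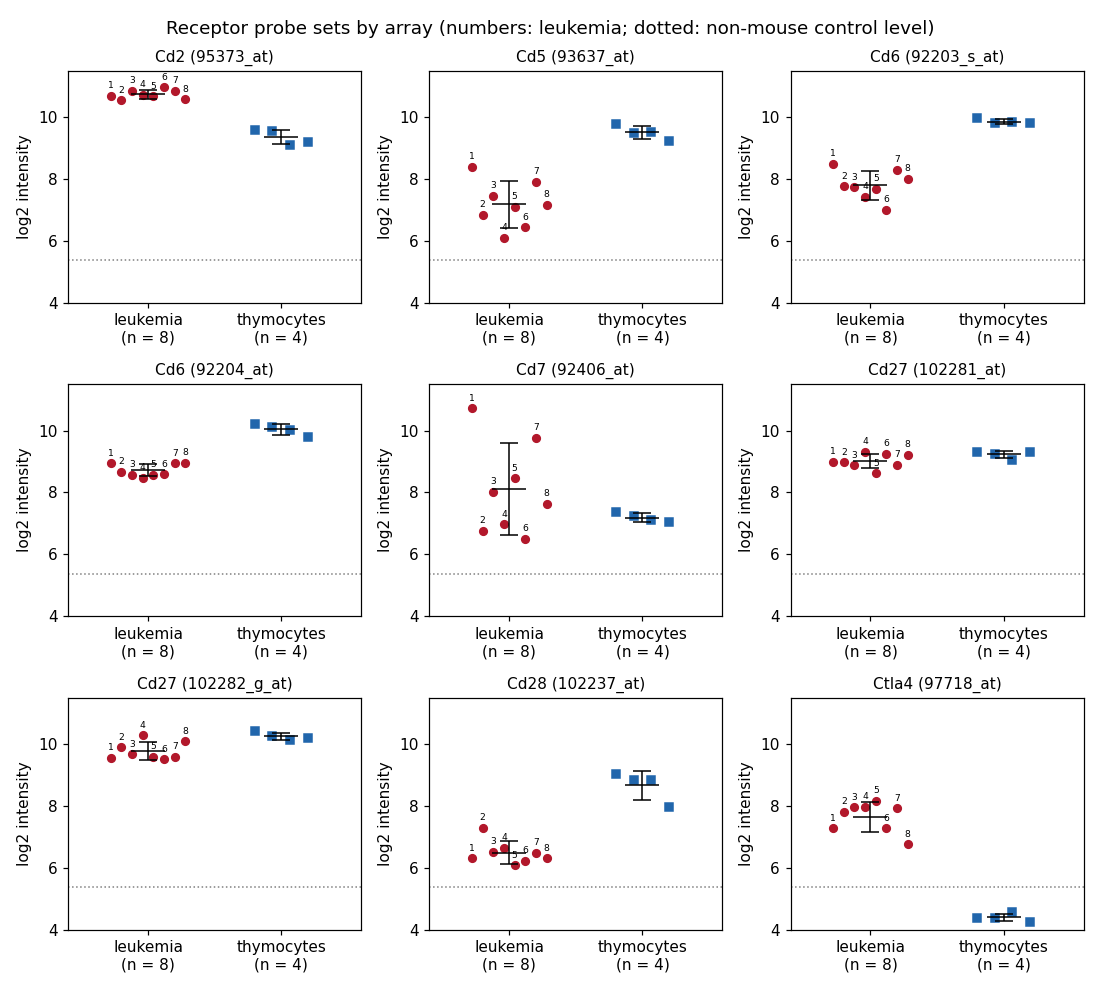
Log2 intensity (vertical axis) of each of the 9 probe sets in 8 leukemias (red circles, numbered) and 4 thymocyte arrays (blue squares), with the mean and SD of each group in black and the mean control level as a dotted line. Ctla4 in thymocytes is the only set of points below the control level, and Cd7 in leukemias spreads from 6.49 to 10.72.

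Ctla4, the inhibitory receptor for Cd80 and Cd86, had a lowest log2 value of 6.76, a median of 7.86 and a highest of 8.16 in leukemias, against 4.38, 4.38, 4.56 and 4.26 in thymocyte arrays. All 8 leukemias lay above the control level of their array and 0 of 4 thymocyte arrays did. The group means were 7.64 ± 0.48 (SD, n = 8) and 4.39 ± 0.12 (SD, n = 4), a log2 change of 3.25 (SE 0.22, adjusted p = 7.4e-07). Because thymocytes gave no signal above the controls, the increase is at least 4.92-fold, taken between the leukemia mean and the thymocyte mean after any thymocyte value under its control level was lifted to that level. Leukemia 8 was lowest at 6.76, followed by leukemias 1 and 6 at 7.28 each, and the other 5 lay between 7.80 and 8.16.

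Cd28, the costimulatory receptor that shares its ligands with Ctla4, went the other way. Its lowest, median and highest log2 values in leukemias were 6.08, 6.40 and 7.30, against 9.02, 8.83, 8.83 and 7.97 in thymocyte arrays. The groups did not overlap, although leukemia 2 at 7.30 and thymocyte array 4 at 7.97 each stood towards the other group. The change was -2.18 (SE 0.22, adjusted p = 2.8e-05), or 4.53-fold lower in leukemia. Cd28, Ctla4 and the related costimulatory receptor gene Icos follow one another on chromosome 1 with no other protein-coding gene between them in the RefSeq table. Icos had log2 values from 4.28 to 6.92 in leukemias and from 5.67 to 6.84 in thymocyte arrays, and its difference of -0.87 (95% interval -1.66 to -0.09 before adjustment) did not pass the test (adjusted p = 0.143).

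The shared ligands of Cd28 and Ctla4 gave little signal. Cd80 reached 3.78 to 4.56 in leukemias and 3.87 to 3.96 in thymocyte arrays, and Cd86 reached 4.90 to 5.53 in leukemias and 5.16 to 5.28 in thymocyte arrays, with both group means of each below the control level. Neither passed the test (adjusted p = 0.125 and 0.931), and the names of both probe sets mark possible cross-hybridization. Cd86 exceeded the control level of its array in 2 of 8 leukemias and 1 of 4 thymocyte arrays, and Cd80 in 0 of either. At this signal a missed difference in either ligand cannot be told from no difference.

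Ctla4 is also known as a gene of regulatory T cells, so the markers of those cells are given beside it. Of 8 measured markers 3 rose and 1 fell, where 5.15% of all genes rose and 11.4% fell. Their summed linear intensity was 1036 to 2131 in leukemias and 845 to 919 in thymocyte arrays. The interleukin-2 receptor chain Il2ra rose at least 3.14-fold (measured log2 change 2.51), the integrin gene Itgae by 1.32 and the receptor gene Tnfrsf18 by 1.02, whereas Nrp1 fell at least 3.12-fold to a leukemia mean below the control level. Ikzf2 (-0.25, adjusted p = 0.0949) and Tnfrsf4 (0.05, adjusted p = 0.925) did not pass, and Gpr83 and Il10 had both group means below the control level. Il10 lay above the control level of its array in leukemia 7 (6.18) and, barely, in leukemia 3 (5.47 against 5.46). Tnfrsf4 and Tnfrsf18 also stand on the list of costimulatory receptors. Foxp3, the defining factor of these cells, was on the list of 10 genes but had no probe set annotated to it alone. The part of such cells in the Ctla4 values was not tested.

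Cd5 fell in leukemia. It had a lowest log2 value of 6.09, a median of 7.13 and a highest of 8.40 in leukemias, against 9.77, 9.48, 9.53 and 9.24 in thymocyte arrays. Every leukemia lay below every thymocyte array, and the change was -2.33 (SE 0.34, adjusted p = 4.9e-04), or 5.03-fold lower. The leukemias differed widely among themselves: leukemia 4 was lowest, leukemias 1 and 7 were highest at 8.40 and 7.91, and the highest was 4.94-fold above the lowest, where thymocyte arrays spanned 1.45-fold. The SD of 0.75 over leukemias was at the 98.4th percentile of all probe sets.

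Cd6, the neighbour of Cd5 on chromosome 19 and its relative in structure, was lower on both of its probe sets. On the unmarked probe set its lowest, median and highest log2 values were 8.47, 8.63 and 8.95 in leukemias, against 10.22, 10.12, 10.01 and 9.80 in thymocyte arrays (change -1.32, SE 0.11, adjusted p = 6.4e-06). On the other, whose name carries an s mark for possible cross-hybridization, they were 7.0, 7.75 and 8.48 in leukemias, against 9.97, 9.81, 9.83 and 9.80 (change -2.05, SE 0.21, adjusted p = 3.4e-05). Both separated the groups without overlap. The summed linear intensity of the 13 T-cell and thymocyte markers was also lower in every leukemia (12216 to 24635) than in any thymocyte array (24751 to 25719). The brightest markers weigh most in this sum. Cd4 (-1.89), Rag2 (-2.39) and Ptcra (-0.96) fell. The other 10 did not pass, among them Rag1 (-2.50), Cd8a (-0.45), Thy1 (-0.31), Cd3e (-0.19) and Cd3d (0.26). The part of these differences in the lower Cd5, Cd6 and Cd28 values was not tested.

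The 2 probe sets of Cd6 did not fall equally. The log2 value of the s-marked probe set minus that of the unmarked one was -0.91 ± 0.33 (SD, n = 8) in leukemias and -0.18 ± 0.13 (SD, n = 4) in thymocyte arrays, a gap of -0.73. An exact two-sided permutation test over the 495 assignments of arrays gave p = 0.00202, the smallest they can give, and 0.00404 after adjustment over the 2 genes with paired probe sets. All 8 leukemias were between -1.58 and -0.47 in this difference, and the thymocyte arrays between -0.31 and 0.00. The cause was not tested.

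The candidate ligands of Cd5 and Cd6 were at or near the control level. Cd72, a B-cell receptor proposed as a ligand of Cd5, and Alcam, the adhesion molecule that binds Cd6, were below the control level in both groups, with differences of 0.00 (adjusted p = 0.995) and 0.04 (adjusted p = 0.900). Cdcp1, also described as a ligand of Cd6, had log2 values of 5.45 to 5.76 in leukemias and 5.60 to 5.98 in thymocyte arrays (difference -0.12, adjusted p = 0.432).

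Cd2, the adhesion receptor, rose and was the most uniform member among leukemias. Its lowest, median and highest log2 values were 10.54, 10.70 and 10.96 in leukemias, against 9.57, 9.55, 9.11 and 9.19 in thymocyte arrays. The groups were far apart relative to their spread, with a change of 1.38 (SE 0.11, adjusted p = 2.4e-06), or 2.6-fold higher. The highest leukemia was 1.34-fold above the lowest, and the SD of 0.15 was at the 38.0th percentile of all probe sets.

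The mouse ligand of Cd2 was also higher in leukemia, although leukemia 6, the highest in Cd2 (10.96), was the lowest in Cd48 (9.50). Cd48 had a lowest, median and highest log2 value of 9.50, 10.11 and 10.57 in leukemias, against 8.48, 8.35, 8.20 and 8.38 in thymocyte arrays (change 1.74, SE 0.18, adjusted p = 3.2e-05). It was the 1 of 8 measured ligands of the members to pass the test, where 16.6% of all genes passed. The complement inhibitor Cd59a, listed as a further ligand of Cd2, had a difference of -0.15 (adjusted p = 0.294). Cd48 is carried by most blood cells, and the part of other cells in its increase was not tested.

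Cd27, the receptor for Cd70, had the smallest differences. On the unmarked probe set its lowest, median and highest log2 values were 8.62, 8.99 and 9.32 in leukemias, against 9.31, 9.25, 9.06 and 9.32 in thymocyte arrays, and the groups overlapped. The difference of -0.22 (95% interval -0.47 to 0.04) did not pass the test (adjusted p = 0.283). On the other, whose name carries a g mark for a group of similar transcripts, the values were 9.51, 9.63 and 10.29 in leukemias, against 10.41, 10.26, 10.13 and 10.19 in thymocyte arrays, a change of -0.47 (SE 0.14, adjusted p = 0.0373). There 7 of 8 leukemias lay below every thymocyte array, and leukemia 4 lay among them.

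That Cd27 call was fragile. It was lost in 19 of 28 alternative analyses, among them each omission of leukemia 1, 3, 5, 6 or 7 or of any thymocyte array (changes of -0.51 to -0.42, adjusted p = 0.0578 to 0.139). The changes of the 2 probe sets differed by 0.26 (exact two-sided permutation p = 0.0687 over 495 assignments, also after adjustment). Cd70 had log2 values of 7.04 to 7.29 in leukemias and 7.0 to 7.32 in thymocyte arrays, a difference of 0.03 (SE 0.07, adjusted p = 0.848).

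Cd7 did not pass the test as a group difference, and single leukemias lay on both sides of the thymocyte arrays. Its log2 values in leukemias 1 to 8 were 10.72, 6.76, 8.02, 6.97, 8.46, 6.49, 9.76 and 7.64, against 7.36, 7.23, 7.11 and 7.03 in thymocyte arrays. Leukemias 1, 7, 5, 3 and 8, in falling order, lay above every thymocyte array, and leukemias 4, 2 and 6 lay below every one. The mean difference of 0.92 (95% interval -0.51 to 2.36, adjusted p = 0.434) did not pass the test. The highest leukemia was 18.8-fold above the lowest, against 1.25-fold over thymocyte arrays, and the SD of 1.5 was at the 99.8th percentile of all probe sets.

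The 2 leukemias with the most Cd7 also had the most Cd5. Leukemias 1 and 7 held the 2 highest values of Cd7, of Cd5 and of Cd6 on the s-marked probe set, and leukemia 6 was lowest in Cd7 and in Cd6 on that probe set and second lowest in Cd5 (6.43). The unmarked Cd6 probe set did not follow this order, with leukemia 8 highest (8.95), just above leukemias 1 and 7 (8.94 each), and leukemia 4 lowest (8.47). Cd2, Cd28 and Ctla4 did not share this order: leukemia 6 was highest in Cd2 (10.96), leukemia 2 in Cd28 and leukemia 5 in Ctla4. Leukemias 1 and 7 were also the lowest in Rag1, part of the enzyme that recombines antigen receptor genes, which was chosen for mention after its values were seen. Its log2 values were 4.86 and 7.99 in leukemias 1 and 7, 9.93 to 11.06 in the other 6 and 11.83 to 11.99 in thymocyte arrays.

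**Figure D2:**
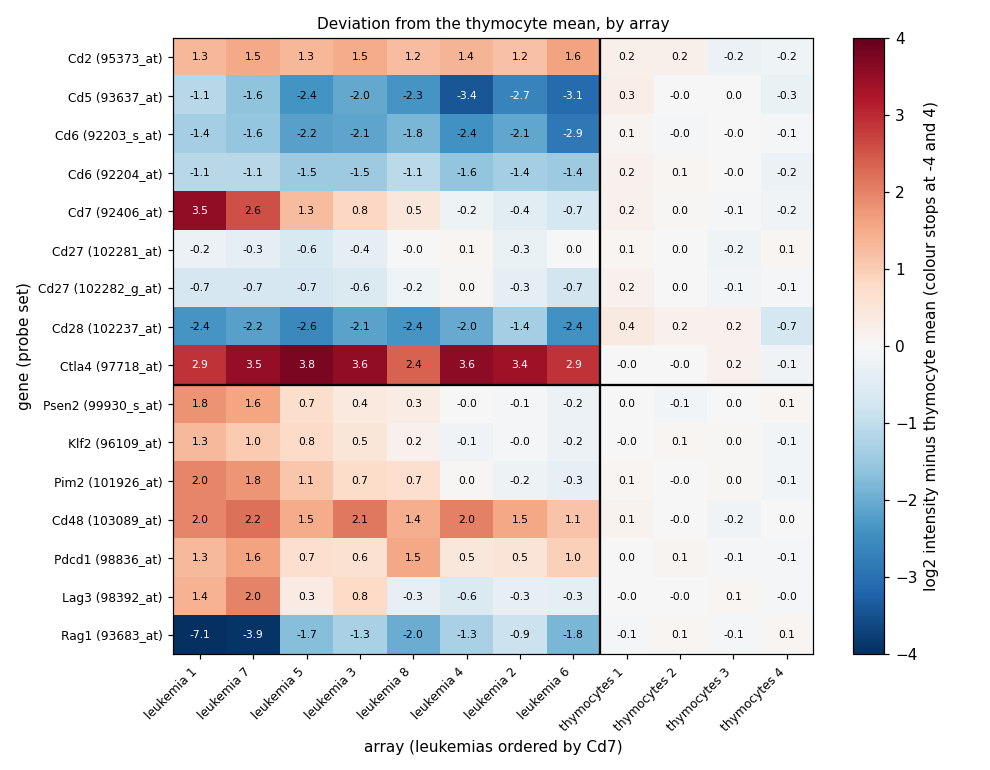
Log2 intensity minus the thymocyte mean of each probe set (rows) in each array (columns, leukemias ordered by Cd7, then thymocytes), with the number printed in each cell and the colour scale stopping at -4 and 4. The rows above the line are the 9 member probe sets, and the rows below are genes named in the text. Cd5 and Cd6 are below the thymocyte mean in all 8 leukemias, and Ctla4 and Cd2 are above it in all 8.

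Markers of other cells were set beside Cd7. The summed linear intensity of 17 macrophage markers ran from 1508 to 7223 in leukemias and from 1588 to 2076 in thymocyte arrays, and that of 6 NK cell markers from 185 to 603 and from 218 to 225. Macrophage sums were highest in leukemias 7, 5 and 3 at 7223, 6202 and 4427, which followed leukemia 1 in the order of Cd7, whereas leukemia 1 itself had a macrophage sum of 2380. The NK sums of leukemias 7, 5, 3 and 1 were 603, 567, 432 and 333, the 4 highest. Of the 6 NK markers, Ncr1, Klrd1, Klrk1 and Klrc1 were below the control level on every array, and Tyrobp is also a macrophage marker. Eomes, a transcription factor of NK and T cells, was below it on all arrays but leukemia 1, where its log2 value was 5.58 against a control level of 5.54, and it reached 3.74 to 4.31 in the other leukemias.

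None of the markers on either list passed the test, with 0 of 17 macrophage markers (5 at an unadjusted p under 0.05) and 0 of 6 NK markers (0 unadjusted) by limma. With the mean of the macrophage markers as a covariate the Cd7 difference was 0.22 (adjusted p = 0.897). Without leukemias 1 and 7 it was 0.21 (adjusted p = 0.791). Those arrays held the 2 highest Cd7 values, so leaving them out lowers the difference by construction and says nothing further about it. The sum of T-cell and thymocyte markers was lowest in leukemias 1 and 7, at 12216 and 14488. The part of macrophages, NK cells or T cells in the Cd7 values of single leukemias was not tested.

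**Figure D3:**
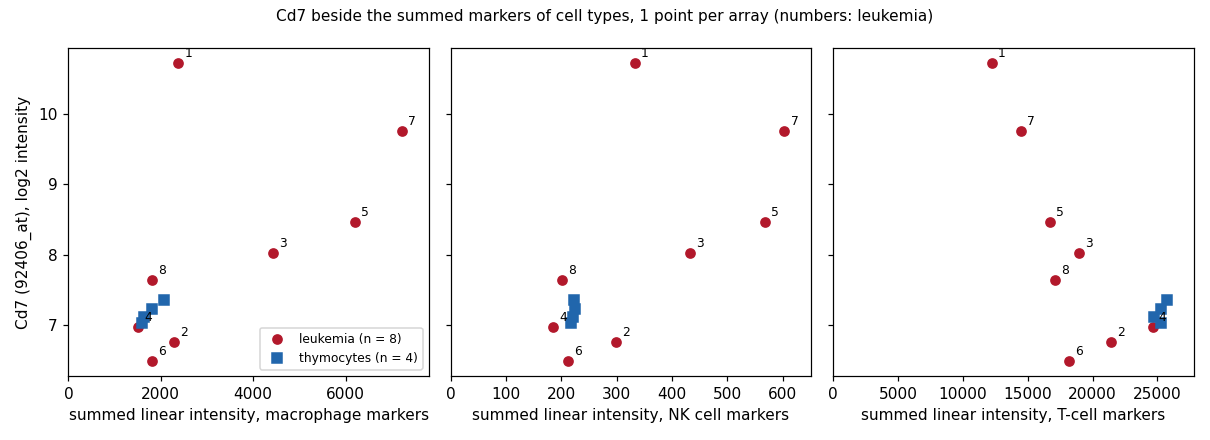
Log2 intensity of Cd7 (vertical axis) against the summed linear intensity of macrophage, NK cell and T-cell markers (horizontal axes), 1 point per array, for 8 leukemias (red, numbered) and 4 thymocyte arrays (blue). Leukemia 1 has the highest Cd7 at 10.72 with a macrophage sum of 2380, and leukemias 7, 5 and 3 have macrophage sums of 4427 or more.

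The other members were also fitted with the macrophage covariate and without leukemias chosen after seeing the data. No covariate for NK cells or T cells was run, and the part of other cells in these calls was not tested. With the macrophage covariate Ctla4 had a change of 3.02, Cd2 of 1.33, Cd28 of -2.12, Cd5 of -2.69 and Cd6 of -1.36 on the unmarked probe set, with adjusted p of 2.0e-06 to 1.7e-04. Without leukemias 3, 5 and 7, where macrophage markers were highest, these changes were 3.02, 1.34, -2.11, -2.52 and -1.31. Without leukemias 1 and 7, where Cd7 was highest, they were 3.26, 1.36, -2.15, -2.66 and -1.40. In each of these analyses 6 of 9 member probe sets passed, the call lost being that of Cd27. Of all 12422 probe sets, 1323 passed with the macrophage covariate, where 1805 did in the main analysis. Without leukemias 3, 5 and 7 the count was 1320, and without leukemias 1 and 7 it was 1816. B-cell markers summed to 771 to 2475 in leukemias and 751 to 780 in thymocyte arrays, with 0 of 11 past the test by limma (2 unadjusted). Jchain, the joining chain of secreted antibodies, reached log2 values of 10.66 in leukemia 2 and 10.22 in leukemia 4. It lay at 5.78 to 6.71 in the other leukemias and 4.93 to 5.39 in thymocyte arrays. Leukemias 2 and 4 had the highest sums, 2475 and 1828, but Jchain alone made up most of both. Cd79a, the brightest B-cell marker by group mean, was instead lowest in leukemia 4 (7.32) and highest in leukemia 7 (9.10).

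Most array titles carry a number of 4 digits (4 leukemias, 3 thymocyte arrays), and the others do not (4 leukemias, 1 thymocyte array). What the numbers stand for is not given. Within the arrays with such a number the changes were 3.53 for Ctla4, 1.28 for Cd2, -2.26 for Cd28, -2.72 for Cd5 and -1.54 for Cd6 on the unmarked probe set. Within the others they were 3.05, 1.58, -1.64, -1.77 and -0.94 in the same order, resting on a single thymocyte array. Cd7 differed by 0.32 and 1.63. The interaction passed for 0 of 12422 probe sets in limma (478 at an unadjusted p under 0.05), members included.

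Related receptors outside the 7 genes were read from lists chosen with earlier results of these data known. Of 9 measured costimulatory receptors 1 rose, 0 fell and 8 did not pass. The riser, Tnfrsf18 (GITR), had a lowest, median and highest log2 value of 8.81, 9.49 and 10.21 in leukemias, against 8.47, 8.50, 8.39 and 8.29 in thymocyte arrays (change 1.02, SE 0.22, adjusted p = 0.00705). Icos, Tnfrsf1b (0.82, adjusted p = 0.114) and Cd244a (0.58, adjusted p = 0.149) did not pass. Both group means of Cd244a were below the control level, and Icos exceeded that level in 4 of 8 leukemias and 4 of 4 thymocyte arrays. The median change of the list was 0.05, and 16.6% of all genes passed the test, 5.15% higher and 11.4% lower.

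Of 6 measured inhibitory receptors 1 rose, 0 fell and 5 did not pass, with a median of 0.34. Pdcd1 (PD-1), which like Ctla4 restrains T-cell responses, had 7.44, 7.79 and 8.57 as its lowest, median and highest log2 values in leukemias, against 7.0, 7.09, 6.92 and 6.89 in thymocyte arrays (change 0.96, SE 0.21, adjusted p = 0.00752). All leukemias lay above all thymocyte arrays, and leukemias 7, 8 and 1 were the highest. Lag3, which binds MHC class II, did not pass (0.37, adjusted p = 0.642) but ranged from 5.83 to 8.39 in leukemias, with leukemias 7 and 1 highest at 8.39 and 7.79, against 6.36 to 6.49 in thymocyte arrays. Cd160 (0.71, adjusted p = 0.266) and Cd96 (0.31, adjusted p = 0.271) did not pass either. Both group means of Cd160 were below the control level, which it exceeded in 3 of 8 leukemias and 0 of 4 thymocyte arrays.

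**Figure D4:**
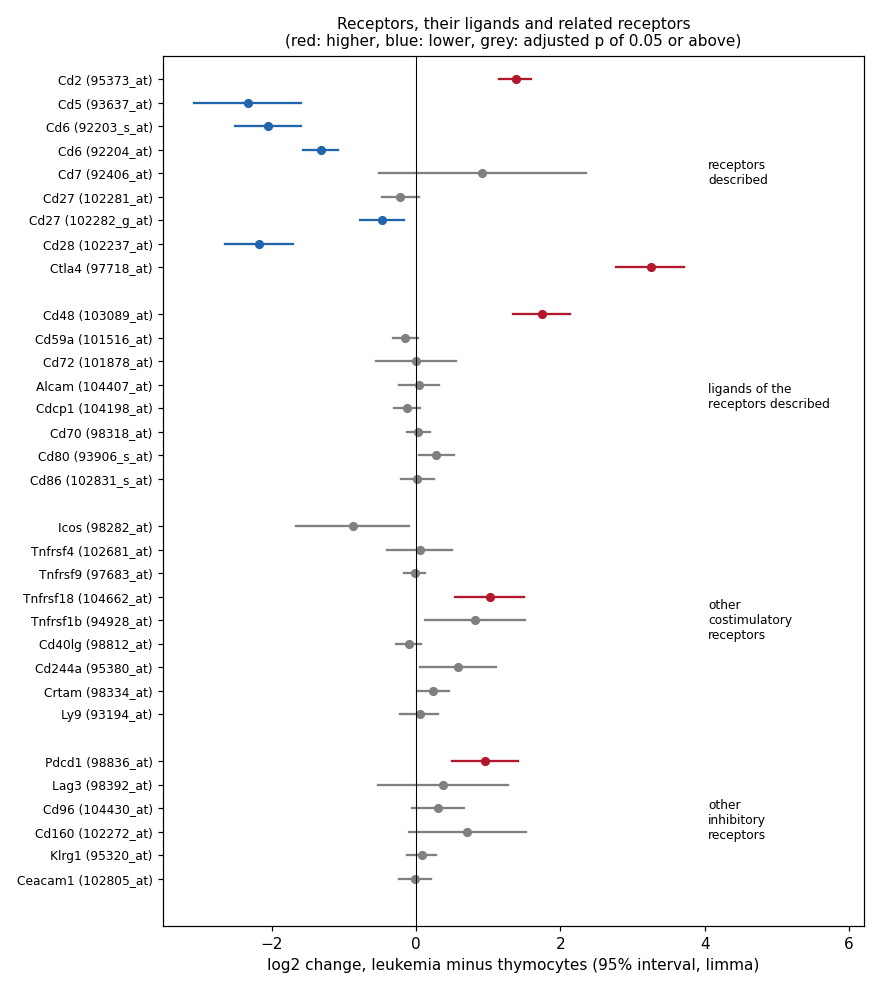
Log2 change of leukemia minus thymocytes (horizontal axis, point) with its 95% interval (line) for the 9 member probe sets, 8 ligands, 9 other costimulatory and 6 other inhibitory receptors, in red where higher, blue where lower and grey where the adjusted p was 0.05 or above. Outside the members Cd48, Tnfrsf18 and Pdcd1 are the genes in red.

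Among 7 measured ligands of these related receptors 0 rose and 1 fell, Pvr, the ligand of the receptors Cd96 and Cd226, with a change of -1.03 (SE 0.17, adjusted p = 0.00112) and values of 5.02 to 6.00 in leukemias and 6.46 to 6.70 in thymocyte arrays. Cd200, a ligand of myeloid inhibitory receptors, was below the control level in both groups (-0.26, adjusted p = 0.0945).

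Proteins that carry the signals of the members inside the cell formed a further list. Of 26 measured genes 2 rose, 3 fell and 21 did not pass, with a median change of -0.09. Among all genes 16.6% passed, 5.15% higher and 11.4% lower. Cd247, the zeta chain of the antigen receptor complex, fell by 0.93 (SE 0.15, adjusted p = 9.0e-04), and Traf2, an adaptor of Cd27, had a change of -0.28 (SE 0.06, adjusted p = 0.00462). Pik3cd, the phosphoinositide 3-kinase subunit of lymphocytes, rose by 1.0 (SE 0.21, adjusted p = 0.00462), and the kinase gene Fyn by 0.57 (SE 0.14, adjusted p = 0.0166). The third to fall was the phosphatase gene Ppp2ca (-0.28, adjusted p = 0.0185), below the control level in both groups. Over all lists of ligands, related receptors and partners 9 of 56 genes passed, 5 higher and 4 lower, near the 16.6% of all genes.

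The genes whose pattern over the 12 arrays was most like that of each member that passed were found by Pearson r, a measure of likeness with no test, among 6036 other genes above the control level in at least 1 group. Since the groups differ, any gene with a similar group difference scores high. The brightest probe set of each member was used. For Ctla4 they were Rcn1 (r = 0.989), a calcium-binding protein of the endoplasmic reticulum, B2m (0.978), the light chain of MHC class I, and the transcription factor gene Bhlhe40 (0.976). For Cd5 they were the glycosyltransferase gene B3gnt2 (0.983), the nuclear receptor gene Nr4a1 (0.966), which antigen receptor signals induce, and the netrin gene Ntn1 (0.962). For Cd6 they were Zbtb20 (0.983), Egr1 (0.969), also induced by antigen receptor signals, and Xpo6 (0.963). Some of these genes were dim in 1 group. Zbtb20 exceeded the control level in 0 of 8 leukemias, Bhlhe40 in 0 of 4 thymocyte arrays and Rcn1 in 2 of 4.

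Cd28 was most like Rab3ip (0.982), the replication kinase gene Cdc7 (0.979) and the deubiquitinase gene Usp10 (0.972), and Cd2 most like the lysosomal membrane gene Lamp1 (0.972), Rbms1 (0.972) and Tmed3 (0.967). Cd27, on the g-marked probe set, was most like Creb1 (0.966), Rbm4b (0.953) and Phf23 (0.944). Cd7 did not pass, and its nearest genes were looked up after its values were seen: Psen2 (0.987, with an s-marked probe set), the transcription factor gene Klf2 (0.978) and the kinase gene Pim2 (0.977). Klf2 followed the same order of leukemias at the top, with 8.48 in leukemia 1, 8.21 in leukemia 7, 7.95 in leukemia 5 and 7.66 in leukemia 3, against 7.06 to 7.26 in thymocyte arrays. Pim2 had 8.98, 8.78, 8.12 and 7.74 in the same leukemias, against 6.92 to 7.09. Neither passed the test between groups (adjusted p = 0.348 for Klf2 and 0.268 for Pim2).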

How the data were processed

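Each array came as 1 deposited linear intensity per probe set. RMA is the method that the submitters' processing notes name for it, and its version is not given. Intensities were converted to log2 without an offset. Of 12488 probe sets 66 were Affymetrix controls and were left out. By the platform annotation 10833 probe sets had a single gene, 396 had more than 1 and 1193 had no gene. The RefSeq table (GRCm38.p6) held the gene of 10817 of the single-gene probe sets, and its symbol was used for them, whether changed or not. It also gave chromosomes and neighbours, since the build of the array annotation is not given. Genes on lists were read from their brightest probe set over all 12 arrays. Groups were compared by lmFit and eBayes of limma 3.58.1 (R 4.3.3), without covariates. In simulated data for this comparison on 12422 probe sets, 89 of 100 changes of 1 and 100 of 100 changes of 2 (log2) were recovered, with 11 false calls. The simulation gave both groups the same SD for a probe set. In the data the SD could differ, as for Cd7 (1.50 in leukemias, 0.14 in thymocyte arrays) or, the other way, Cd2 (0.15 and 0.24). These counts therefore do not cover unequal spread. The number of arrays limits the precision.

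Named genes were all member probe sets, every measured ligand of a member, up to 4 genes per pathway list by moderated statistic, up to 2 of the brightest genes per marker list, and the 3 genes most like each member that passed. The text names some further genes, picked once their values had been seen. The members and lists were chosen with earlier results of these data known. The alternatives changed the normalization, filter, variance model, test, threshold, probe sets, arrays and covariates. The analyses without leukemias 1 and 7 and without leukemias 3, 5 and 7 were chosen after seeing the data. Of the remaining marker lists, dendritic cell markers had 0 of 8 and erythroid markers 0 of 6 past the test by limma (2 and 1 unadjusted), and stromal and epithelial markers had 1 higher and 2 lower of 14.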

Additional observations from a re-analysis of the deposited data

Results flagged for a closer look

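In 138 checks of 69 named probe sets in each group, 6 samples stood apart from the rest of their group by Dixon's ratio, which chance gives in about 1 in 20 groups. Among the members, leukemia 2 had a Cd28 value of 7.30, where the other leukemias lay between 6.08 and 6.65. Thymocyte array 1 had 9.97 for Cd6 on its s-marked probe set, where the other 3 lay between 9.80 and 9.83. Among other named genes, leukemia 5 had 4.12 for Cd200 (others 3.55 to 3.81) and leukemia 6 had 4.02 for Tnfsf4 (others 3.52 to 3.69), both below the control level. Thymocyte array 4 had 12.30 for Thy1 (others 12.11 to 12.14) and 5.91 for Zbtb20 (others at 6.08).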

How the results depend on the processing

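The main analysis called 1805 probe sets, 7 of them members, and 9 genes of the pathway lists. With single arrays omitted in turn the counts were 1162 to 2044 probe sets, 6 to 7 members and 8 to 12 list genes, and the count fell by over 1.5 times without thymocyte array 1 (1162) or 2 (1185). An adjusted p under 0.01 left 1008 probe sets, and a test against a 1.5-fold change left 128 probe sets and 1 list gene. Array weights gave 15 list genes. The arrays without a 4-digit title number, with 1 thymocyte array, gave 13 probe sets, 1 member (Cd28) and 0 list genes by limma (9 of 56 unadjusted). There Ctla4 and Cd2 had changes of 3.05 and 1.58 (adjusted p = 0.0576 each), Cd5 -1.77 (0.469) and Cd6 -0.94 (0.167) and -1.85 (0.300). In every other alternative run, Ctla4, Cd2, Cd5, Cd6 and Cd28 kept their direction and their call, with values of 3.02 to 3.53 for Ctla4 and -2.41 to -2.06 for Cd28, which kept its call at -1.64 in those arrays too. Cd5 had the largest decrease in the main analysis, but Cd28 did without leukemia 2 (-2.30 against -2.28) or leukemia 4 (-2.20 against -2.18), and Cd6 on its s-marked probe set did in the arrays without such a number. No member reversed. By the exact rank-sum test 6 member probe sets passed (p = 0.00404 each, the smallest it allows, adjusted 0.0378), where 1327 of 12422 probe sets (10.7%) did. That is also the count of probe sets whose groups did not overlap, so this test restates that separation and adds no further support. No paired analysis was possible because the labels give the groups no shared replicate numbers. Cd80, Cd86, Cd72 and Alcam had both group means below the control level, so their lack of a call says little.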
